A study of Mus musculus with 9 samples.

Results

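The integrins and laminins described here are the genes of the deposited count table that encode integrin alpha and beta subunits and laminin alpha, beta and gamma chains. They were found by symbol: Itga or Itgb followed by a digit, the lettered subunits Itgad, Itgae, Itgal, Itgam, Itgav and Itgax, and Lama, Lamb or Lamc followed by digits. Binding proteins with similar symbols were left out, as were Itga4, Itgb8 and Itgb2l, which had 0 counts in all 9 libraries. This left 35 genes, 24 integrins and 11 laminins, out of 55418 symbols in the table, of which 30670 had at least 1 count. The study counted messenger RNA in cultured 66cl4 cells, a mouse line labelled as triple negative breast cancer. One group, shEya3_KD1, carried a short hairpin RNA named for Eya3. Another, shEya3_KD2, carried a second hairpin named for the same gene, and the control group, SCR, carried a scrambled hairpin. Each group has 3 libraries labelled as biological replicates. Cells of every group, controls included, had been transduced with a hairpin and kept in puromycin, and none is untransduced. Whether they were pools or single clones is not given in the sources used here, so a difference of a single transduced population cannot be told apart from the hairpin's effect.

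Integrins are receptors made of 1 alpha and 1 beta chain that join a cell to its matrix or to other cells, and neither chain reaches the surface well without a partner. Laminins are trimers of 1 alpha, 1 beta and 1 gamma chain and form the sheet on which basement membranes assemble. In mammary epithelium, laminin-binding integrins anchor cells to that membrane and carry polarity and survival signals. Itgb4, with its sole partner Itga6, builds hemidesmosomes, the junctions that tie keratin filaments to laminin.

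Eya3, the gene the hairpins were named for, averaged 23.1 ± 1.71 CPM (counts set against the scaled total of the library, SD, n = 3) in shEya3_KD1 and 37.5 ± 3.02 CPM in shEya3_KD2, against 72.9 ± 5.56 CPM in SCR. Library totals ran between 27758862 and 52691960 counts. Of the genes checked against the labelled cell type, the keratin gene Krt8 and the mesenchymal filament gene Vim were abundant. Krt8 averaged 1315, 793 and 679 CPM in shEya3_KD1, shEya3_KD2 and SCR, and Vim 3186, 2489 and 2099 CPM. Other keratin genes were far lower, with Krt18 at 0.955, 2.62 and 0.0277 CPM and Krt19 at 0.025, 0.443 and 0.0212 CPM. Krt5 stood at 0.506, 0.0332 and 0.0211 CPM, and Krt14 at 0.561, 11.8 and 1.32 CPM. Cdh1 averaged 0.0437, 0.197 and 0.0678 CPM, and the epithelial adhesion gene Epcam had 0 counts in every group. The progesterone receptor Pgr also had 0 counts, whereas the oestrogen receptor Esr1 averaged 14.8 CPM in shEya3_KD1, 16.0 CPM in shEya3_KD2 and 7.12 CPM in SCR. Erbb2, the HER2 gene, averaged 65.4 CPM in shEya3_KD1 and 67.1 CPM in shEya3_KD2, against 53.6 CPM in SCR. The labels call the replicates biological but do not describe the cultures. The p-values set group differences against the scatter among these libraries, and against no wider source of variation. In such bulk samples, fewer cells of a type and less RNA per cell cannot be told apart.

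Of the 35 genes, 25 passed the filter on low counts and were tested, 16 integrins and 9 laminins. With shEya3_KD1 against SCR, 8 of the 25 were higher and 8 lower at an adjusted p of 0.05 (32.0% each), where 24.1% of all 15914 genes tested were called higher and 26.2% lower. With shEya3_KD2 against SCR 8 were higher (32.0%) and 6 lower (24.0%), where 23.0% and 22.3% of all genes were called. Between the hairpins 8 were higher in shEya3_KD2 and 6 lower, where 27% and 22.5% of all genes were called. The shares lie near those of the whole transcriptome. The median log2 fold change of the 25 was 0.0026 with shEya3_KD1 and -0.08 with shEya3_KD2, beside 0.014 and -0.0044 for all genes tested. The 2 hairpin comparisons share the SCR libraries and are not independent of each other. The tests were edgeR quasi-likelihood F tests with p adjusted over all genes tested, and those adjusted values are given below.

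**Figure D1:**
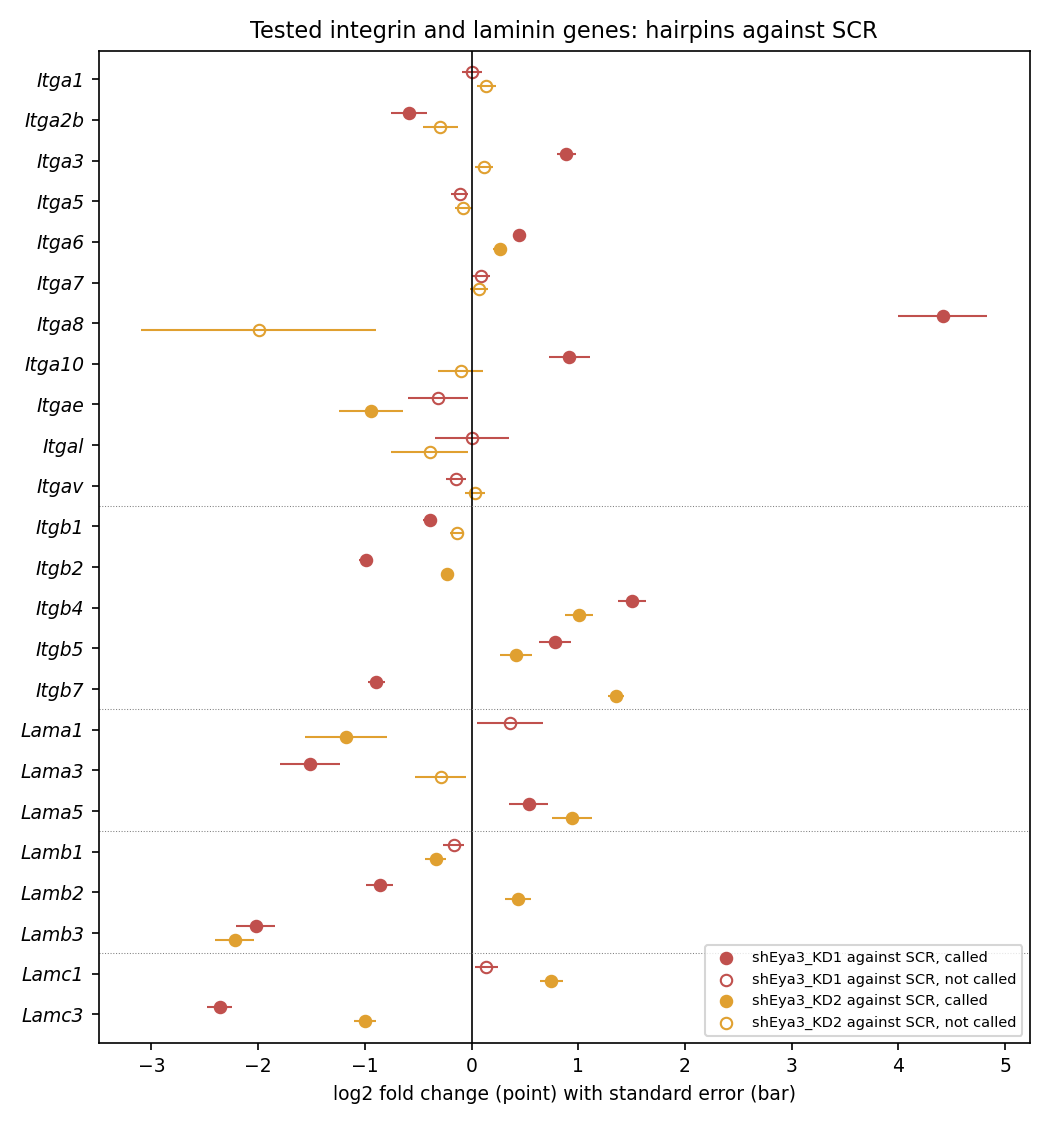
Log2 fold change (horizontal axis) of 24 tested integrin and laminin genes (rows, dotted lines between classes) in shEya3_KD1 (red) and shEya3_KD2 (yellow) against SCR, with standard errors as bars and filled points where the adjusted p was below 0.05. Itgb7 and Lamb2 lie on opposite sides of 0 with the 2 hairpins, and Lamb3 and Lamc3 lie below 0 with both.

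Levels of different genes were compared per length, as TPM (a share of all transcripts in the library, computed from the counts and the summed exon length of each gene). Among the alpha subunits Itga3, a laminin receptor chain that pairs with Itgb1, was the most abundant in every group, at 435 ± 40.2 TPM in shEya3_KD1 and 267 ± 31.2 TPM in shEya3_KD2, against 241 ± 20.96 TPM in SCR (n = 3 each). Itgav, Itga6, Itga5 and Itga7 followed in SCR at 54.4, 47.0, 27 and 15.2 TPM, and Itga1 stood at 3.23 TPM. Among the beta subunits Itgb2 led in SCR with 446 ± 9.52 TPM, ahead of Itgb1 with 362 ± 11.6 TPM. The main laminin chains in SCR were Lama5 at 70.6 TPM, Lamb1 at 113 TPM and Lamc1 at 47.6 TPM. These 3 chains together form a laminin of adult basement membranes. Lama3 and Lamb3, chains of the laminin that hemidesmosomes hold on to, stood at 0.275 and 2.69 TPM in SCR.

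**Figure D2:**
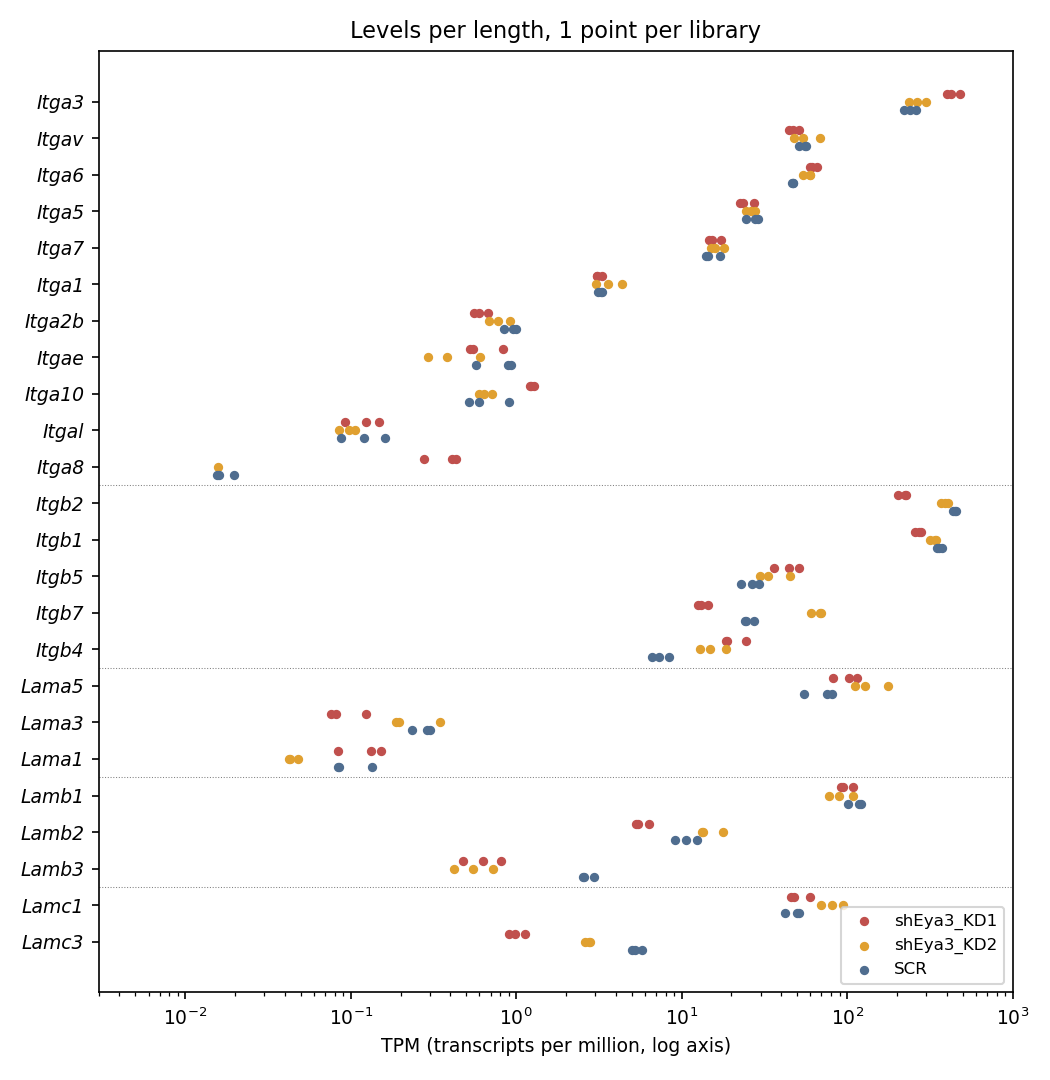
Level per length (TPM, log axis) of 24 integrin and laminin genes with a group mean of at least 0.1 TPM, with 1 point per library in shEya3_KD1 (red), shEya3_KD2 (yellow) and SCR (blue). Values of 0 (2 libraries of Itga8 in shEya3_KD2) are not drawn. Each class is led by 1 or 2 genes, with Itga3, Itgb2 and Itgb1, Lama5, Lamb1 and Lamc1 at the right.

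The beta subunits moved in both directions. Itgb7, which pairs with Itga4 or Itgae on lymphocytes (mm10, chromosome 15, 102215995 to 102231944), was at 13.5, 12.5 and 12.3 CPM in the shEya3_KD1 libraries and 63.4, 61.0 and 57.3 CPM in the shEya3_KD2 libraries, against 22.8, 26.0 and 22.2 CPM in SCR. The 3 groups did not overlap, with shEya3_KD1 lowest and shEya3_KD2 highest. Itgb7 fell by 0.89 on the log2 scale with shEya3_KD1 (SE 0.08, adjusted p = 2.46e-07) and rose by 1.35 with shEya3_KD2 (SE 0.08, adjusted p = 4.97e-09), and between the hairpins it was 2.25 ± 0.08 higher in shEya3_KD2 (adjusted p = 1.10e-11). Its known partners were low: Itga4 had 0 counts and Itgae averaged 1.01 ± 0.295 CPM in shEya3_KD1 and 0.649 ± 0.261 CPM in shEya3_KD2, against 1.24 ± 0.322 CPM in SCR.

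Itgb4, the hemidesmosome subunit (mm10, chromosome 11, 115974709 to 116008412), was at 58.3, 44.8 and 46.7 CPM in shEya3_KD1 and 34.7, 41.5 and 30.6 CPM in shEya3_KD2, against 15.8, 20.02 and 17.1 CPM in SCR. Every library of either hairpin lay above every SCR library, and every shEya3_KD1 library lay above every shEya3_KD2 library. The log2 fold changes were 1.503 ± 0.13 (SE, adjusted p = 1.08e-06) with shEya3_KD1 and 1.01 ± 0.13 (adjusted p = 6.53e-05) with shEya3_KD2. Its partner Itga6 rose by a smaller amount, with 195 ± 5.25 CPM in shEya3_KD1 and 172 ± 7.08 CPM in shEya3_KD2, against 143 ± 0.931 CPM in SCR (log2 fold changes 0.45 ± 0.06 and 0.26 ± 0.06, adjusted p = 1.55e-05 and 0.0022). Itgb5, a partner of Itgav in vitronectin binding, rose by 0.78 ± 0.15 with shEya3_KD1 (adjusted p = 0.00106) to 54.1 ± 8.17 CPM, against 31.5 ± 4.14 CPM in SCR. With shEya3_KD2 it averaged 42.1 ± 7.75 CPM (log2 fold change 0.42 ± 0.15, adjusted p = 0.0413). That call was lost without shEya3_KD1 replicate 2, shEya3_KD2 replicate 1 or 2, or SCR replicate 1 or 3, with adjusted p = 0.0529 to 0.133 and a log2 fold change of 0.27 without shEya3_KD2 replicate 2.

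Itgb2, the shared beta chain of leukocyte integrins (mm10, chromosome 10, 77530252 to 77565708), was at 234, 237 and 221 CPM in shEya3_KD1 and 400.2, 395 and 382 CPM in shEya3_KD2, against 449.8, 465 and 462 CPM in SCR. The groups did not overlap. Itgb2 fell by 0.99 on the log2 scale with shEya3_KD1 (SE 0.06, adjusted p = 3.57e-09) and by 0.23 with shEya3_KD2 (SE 0.06, adjusted p = 0.0071). Its alpha partners had few counts. Itgal averaged 0.277, 0.208 and 0.272 CPM in shEya3_KD1, shEya3_KD2 and SCR and passed no test. Itgam, Itgax and Itgad each had at most 5 counts in any group. Of the 5024 exon bases of Itgam, 3450 are shared with another gene on the same strand, Gm49368, which had 0 counts. How reads in shared bases were counted is not given in the sources used here, so the Itgam reading is uncertain. The leukocyte marker list of 12 genes summed to 5.10 to 6.34 CPM in shEya3_KD1 and 12.4 to 13.8 CPM in shEya3_KD2, against 11.2 to 11.4 CPM in SCR, mostly from Cd68 (3.54, 12.1 and 9.64 CPM). Its defining gene Ptprc, the common leukocyte antigen, averaged 0.203, 0.0366 and 0.641 CPM, and 4, 5 and 3 of the 12 had 0 counts in shEya3_KD1, shEya3_KD2 and SCR, C1qa and C1qc among them in each. The 5 tested members did not move one way: with shEya3_KD1 Cd68 and Ptprc fell, whereas C1qb and Cd3g rose by 3.15 ± 0.63 and 1.06 ± 0.23 on the log2 scale (adjusted p = 7.01e-04 and 0.0015). With shEya3_KD2 Ptprc fell, and Cd68 and C1qb rose by 0.32 ± 0.12 and 3.58 ± 0.59 (adjusted p = 0.0381 and 1.96e-04). The C1qb changes rest on few reads, 32 counts in shEya3_KD1 and 44 in shEya3_KD2, against 4 in SCR. The part of other cells in the Itgb2 level was not tested. Itgb1, the partner of most matrix-binding alpha chains, fell by 0.39 ± 0.06 with shEya3_KD1 (adjusted p = 7.20e-05), with 379 ± 8.0 CPM against 498 ± 15.3 CPM in SCR. In shEya3_KD2 it averaged 452 ± 13.2 CPM and did not pass the test (log2 fold change -0.14 ± 0.06, adjusted p = 0.077), although DESeq2 and a stricter filter called it (adjusted p = 0.0137 and 0.0139).

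**Figure D3:**
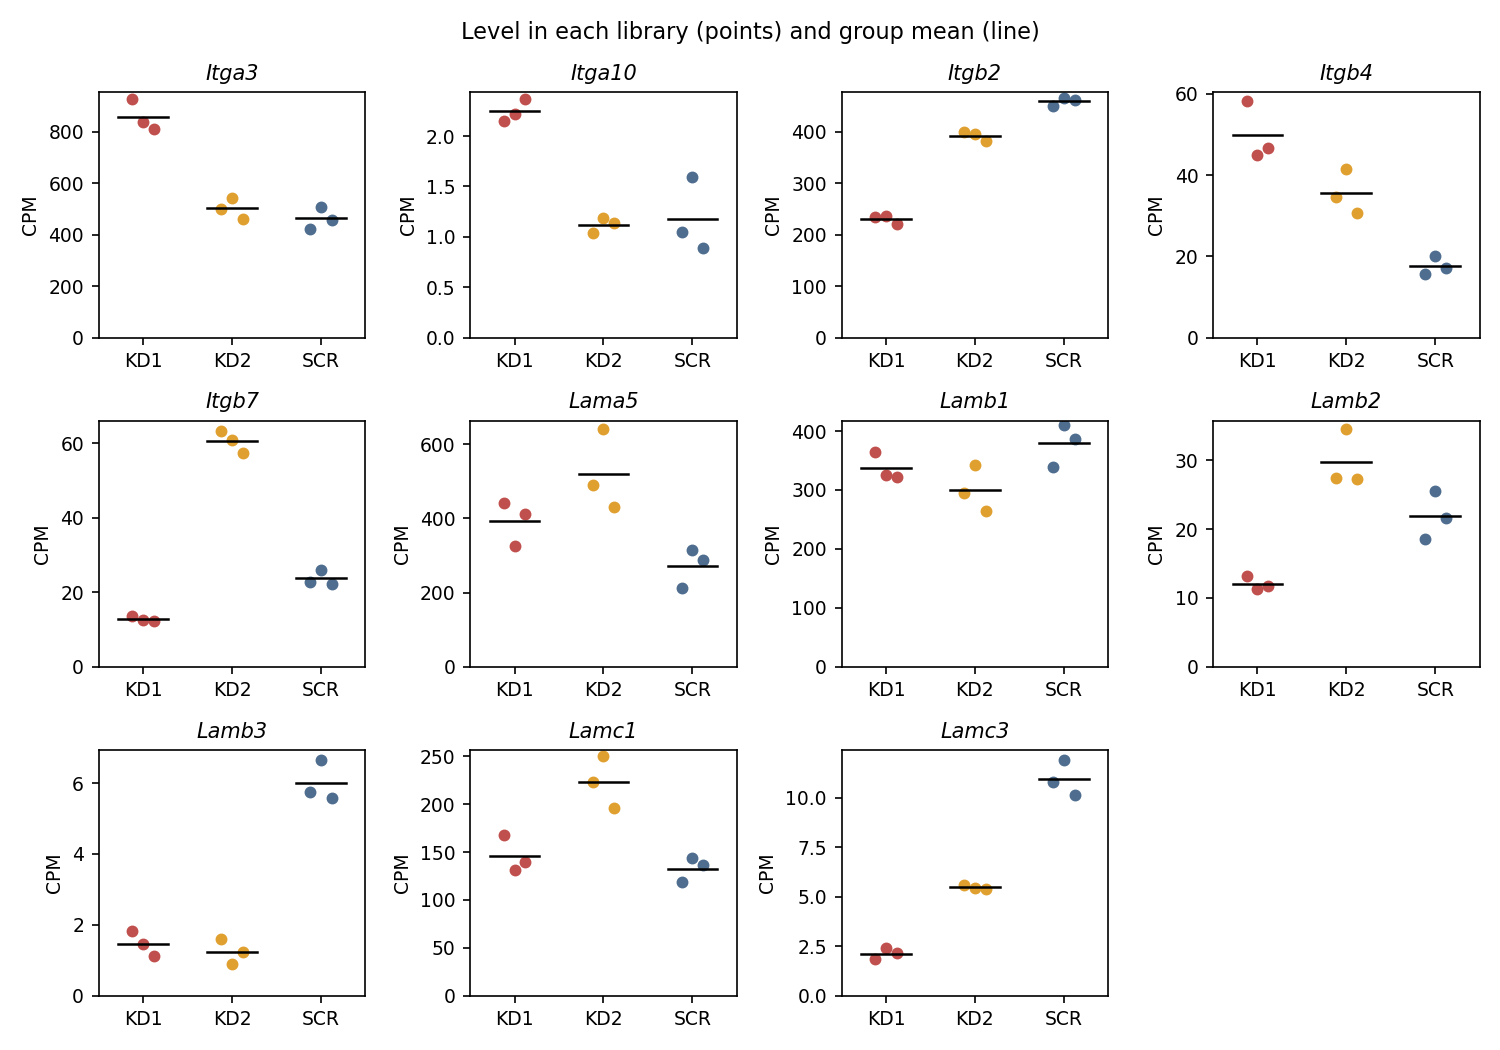
Level in CPM (vertical axes, each from 0) of 11 integrin and laminin genes in each library of shEya3_KD1 (KD1, red), shEya3_KD2 (KD2, yellow) and SCR (blue), with the group mean as a line. Shown are the leading gene of each class in SCR and genes of at least 1 CPM called with a log2 change of at least 1 in a comparison. Itgb7 and Lamb2 stand highest in shEya3_KD2, Itga3 and Itgb4 in shEya3_KD1, and Itgb2, Lamb3 and Lamc3 in SCR.

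Among the alpha subunits, 4 of the 11 tested were higher in shEya3_KD1 and 1 was lower. With shEya3_KD2 Itga6 rose, Itgae fell and the other 9 were not called. Itga3 (mm10, chromosome 11, 95044474 to 95076801) was at 930.1, 839 and 811 CPM in shEya3_KD1 and 502, 545 and 461 CPM in shEya3_KD2, against 425, 510.0 and 458 CPM in SCR. The shEya3_KD1 libraries lay above all others, while those of shEya3_KD2 and SCR overlapped. The log2 fold change was 0.89 ± 0.09 with shEya3_KD1 (adjusted p = 5.54e-07) and 0.11 ± 0.09 with shEya3_KD2 (adjusted p = 0.301), and Itga3 was 0.78 ± 0.09 lower in shEya3_KD2 than in shEya3_KD1 on the log2 scale (adjusted p = 2.95e-06).

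Itga10, a collagen receptor chain best known from cartilage, was at 2.15, 2.22 and 2.36 CPM in shEya3_KD1 and 1.03, 1.18 and 1.13 CPM in shEya3_KD2, against 1.05, 1.59 and 0.890 CPM in SCR. It rose by 0.91 ± 0.19 with shEya3_KD1 (adjusted p = 9.96e-04), and the shEya3_KD2 libraries lay within the range of SCR (adjusted p = 0.725). Its exons share 1739 bases with another gene on the same strand, Gm42957, which had 6 counts in all. Itga8, a receptor chain for nephronectin known from kidney development, was at 1.02, 1.10 and 0.720 CPM in shEya3_KD1 and 0, 0.0369 and 0 CPM in shEya3_KD2, against 0.0396, 0.0393 and 0.0481 CPM in SCR. These are 113 counts in shEya3_KD1 and 1 in shEya3_KD2, against 6 in SCR. All shEya3_KD1 libraries lay above all others, by a ratio of 22.9 to SCR (95% counting interval 10.2 to 63.8, adjusted p = 4.29e-07). In shEya3_KD2 Itga8 was lower than in shEya3_KD1 by a ratio of 116 (20.4 to 4627, adjusted p = 3.14e-07), and it passed no test against SCR (adjusted p = 0.156). Npnt, which encodes nephronectin, had 38 counts in shEya3_KD1 and 14 in shEya3_KD2, against 8 in SCR, too few to test.

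Itga2b, the platelet chain that pairs with Itgb3, fell by 0.59 ± 0.17 with shEya3_KD1 (adjusted p = 0.0093), with 1.15 ± 0.129 CPM against 1.72 ± 0.152 CPM in SCR, and was at 1.43 ± 0.171 CPM in shEya3_KD2 (adjusted p = 0.166). The platelet marker list summed to 0.922 to 1.31 CPM in shEya3_KD1 and 1.22 to 1.42 CPM in shEya3_KD2, against 1.66 to 1.99 CPM in SCR, with its gene Gp1bb at 0 counts. Its 2 tested members went opposite ways: Ppbp fell by 3.06 ± 0.30 with shEya3_KD1 and 1.89 ± 0.26 with shEya3_KD2, while Gp9 rose by 0.55 ± 0.22 and 0.56 ± 0.22 (adjusted p = 0.0482 and 0.0487). The part of such cells in the Itga2b level was not tested. Itgae, the chain that binds E-cadherin, fell by 0.94 ± 0.30 with shEya3_KD2 (adjusted p = 0.0193). The call was lost without shEya3_KD2 replicate 1 (adjusted p = 0.117), SCR replicate 1 (0.0645) or SCR replicate 2 (0.0732). Itgae holds Haspin on the opposite strand in its span, with 9182 counts against 375 for Itgae, and the strand setting of the counting is not given in the sources used here, so the Itgae reading is uncertain. Itga5 (fibronectin), Itgav (vitronectin and other ligands), Itga7 (laminin) and Itga1 (collagen and laminin) passed no test against SCR. Their log2 fold changes lay between -0.15 (Itgav) and 0.09 (Itga7) with shEya3_KD1, and between -0.08 (Itga5) and 0.14 (Itga1) with shEya3_KD2. Without shEya3_KD2 replicate 3, Itga1 was called with shEya3_KD2 (log2 fold change 0.24, adjusted p = 0.0257).

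Among the laminin gamma chains, Lamc3, known from brain and retina (mm10, chromosome 2, 31887291 to 31946539), was at 1.87, 2.39 and 2.13 CPM in shEya3_KD1 and 5.62, 5.43 and 5.41 CPM in shEya3_KD2, against 10.8, 11.9 and 10.2 CPM in SCR. It fell by 2.36 ± 0.11 with shEya3_KD1 (adjusted p = 2.13e-10) and by 1.00 ± 0.10 with shEya3_KD2 (adjusted p = 2.15e-06). The 3 groups did not overlap, with shEya3_KD1 lowest and SCR highest. Lamc1, the common gamma chain, was at 168, 131 and 139 CPM in shEya3_KD1 and 223, 250 and 196 CPM in shEya3_KD2, against 118, 144 and 137 CPM in SCR. The log2 fold change was 0.14 ± 0.11 with shEya3_KD1 (adjusted p = 0.311, not called), and Lamc1 rose by 0.75 ± 0.11 with shEya3_KD2 (adjusted p = 1.16e-04).

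Of the beta chains, Lamb3 (mm10, chromosome 1, 193207699 to 193343878), which joins Lama3 in a trimer, was at 1.82, 1.45 and 1.12 CPM in shEya3_KD1 and 1.60, 0.887 and 1.23 CPM in shEya3_KD2, against 5.76, 6.65 and 5.58 CPM in SCR. All SCR libraries lay above all hairpin libraries, and the hairpins overlapped each other. Lamb3 fell by 2.02 ± 0.18 with shEya3_KD1 (adjusted p = 2.38e-07) and by 2.22 ± 0.18 with shEya3_KD2 (adjusted p = 2.68e-07). Lamb2, a chain of synapses and kidney filters, was at 13.2, 11.2 and 11.8 CPM in shEya3_KD1 and 27.4, 34.5 and 27.3 CPM in shEya3_KD2, against 18.6, 25.6 and 21.6 CPM in SCR. It fell by 0.86 ± 0.12 with shEya3_KD1 (adjusted p = 5.52e-05) and rose by 0.44 ± 0.12 with shEya3_KD2 (adjusted p = 0.00878). Lamb1, the most abundant beta chain, was at 365, 325 and 323 CPM in shEya3_KD1 and 295, 342 and 264 CPM in shEya3_KD2, against 339.7, 409.7 and 387 CPM in SCR. Its log2 fold change was -0.17 ± 0.10 with shEya3_KD1 (adjusted p = 0.167) and -0.34 ± 0.10 with shEya3_KD2 (adjusted p = 0.0111), where the groups overlapped and the call was lost without SCR replicate 2 (adjusted p = 0.0518).

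Among the alpha chains, Lama5 (mm10, chromosome 2, 180176373 to 180225859) took between 99.3% and 99.8% of the summed laminin alpha TPM in each library. It was at 443, 326 and 411 CPM in shEya3_KD1 and 491, 642 and 430.4 CPM in shEya3_KD2, against 212, 314 and 288 CPM in SCR. Both hairpin groups lay above SCR without overlap, and they overlapped each other. Lama5 rose by 0.94 ± 0.19 with shEya3_KD2 (adjusted p = 0.00243). With shEya3_KD1 the log2 fold change was 0.54 ± 0.18 (adjusted p = 0.0354), and the call was lost without shEya3_KD1 replicate 1 (adjusted p = 0.141) or 3 (0.0881), SCR replicate 1 (0.0966) or 3 (0.0609), or the filter on low counts (0.102). Replicate 2 of shEya3_KD2, the library with the fewest counts (27758862), held that group's highest value of Lama5. The same was true of Lama3, Lamb1, Lamb2, Lamc1, Itgav, Itga1, Itga3, Itga5, Itga7, Itgb4 and Itgb5, among others. The other groups had such a library too. Replicate 1 of shEya3_KD1 (40328781 counts) held its group's highest value of each gene just named, Lama5 included. Replicate 1 of SCR (49604834 counts) held its group's lowest value of each except Lama3. What lies behind this was not tested. Lama3 fell by 1.52 ± 0.28 with shEya3_KD1 (adjusted p = 3.52e-04), with 0.347 ± 0.0889 CPM against 0.997 ± 0.137 CPM in SCR, and was at 0.856 ± 0.282 CPM in shEya3_KD2 (adjusted p = 0.352). Lama1, a chain of embryonic basement membranes, averaged 0.411 ± 0.110 CPM in shEya3_KD1 and 0.142 ± 0.0056 CPM in shEya3_KD2, against 0.328 ± 0.0904 CPM in SCR. It fell with shEya3_KD2 (log2 fold change -1.18 ± 0.38, adjusted p = 0.0211), a call lost without shEya3_KD2 replicate 1 (adjusted p = 0.0743) or SCR replicate 3 (0.0901).

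Levels were also summed over each integrin class. The Itga3 share of the alpha sum lay above the SCR range in shEya3_KD1 and within it in shEya3_KD2. The Itgb7 share of the beta sum lay below the SCR range in shEya3_KD1 and above it in shEya3_KD2. The alpha subunits summed to 550.1 to 647 TPM in shEya3_KD1 and 383 to 480.3 TPM in shEya3_KD2, against 363 to 416 TPM in SCR. The beta subunits summed to 528 to 593 TPM in shEya3_KD1 and 789 to 886 TPM in shEya3_KD2, against 863 to 874 TPM in SCR. Itga3 made up 73.5% ± 0.575 of the alpha sum in shEya3_KD1 and 62.1% ± 0.221 in shEya3_KD2, against 61.7% ± 1.18 in SCR (SD, n = 3). Itgb7 made up 2.36% ± 0.0619 of the beta sum in shEya3_KD1 and 7.86% ± 0.178 in shEya3_KD2, against 2.92% ± 0.231 in SCR. These shares are given as descriptions, since 3 libraries against 3 allow no p below 0.1 in an exact permutation test.

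**Figure D4:**
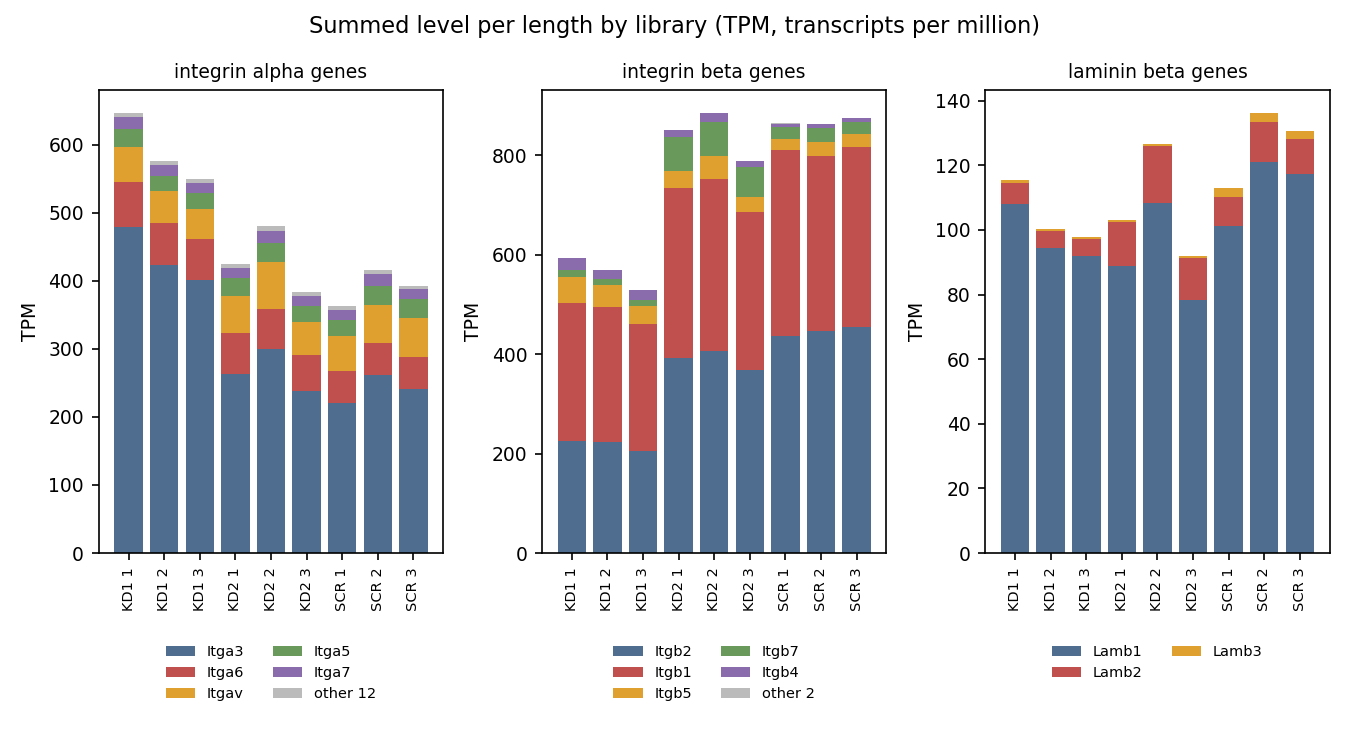
Stacked level per length (TPM, vertical axes from 0) of the integrin alpha, integrin beta and laminin beta genes in each library, with replicates of shEya3_KD1 (KD1) at the left, shEya3_KD2 (KD2) in the middle and SCR at the right. The integrin alpha sum is highest and the integrin beta sum lowest in the shEya3_KD1 libraries.

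Compared directly, shEya3_KD2 had more Lamc3 and Lamc1 than shEya3_KD1, with log2 differences of 1.36 ± 0.12 and 0.61 ± 0.11 (adjusted p = 2.85e-07 and 4.83e-04). Lamb2 was 1.30 ± 0.12 and Lama3 1.23 ± 0.30 higher in shEya3_KD2 (adjusted p = 1.38e-06 and 0.00324), and Lama1 was lower (-1.54 ± 0.38, adjusted p = 0.00342). Lamb3 and Lama5 did not pass the test between the hairpins (adjusted p = 0.481 and 0.0955), with differences of -0.20 ± 0.22 and 0.41 ± 0.18. Among integrins, Itgb2 and Itgb1 were higher in shEya3_KD2 by 0.77 ± 0.06 and 0.25 ± 0.06 (adjusted p = 8.53e-08 and 0.00304), whereas Itgb4 and Itga10 were lower (-0.49 ± 0.13 and -1.02 ± 0.20, adjusted p = 0.00685 and 6.77e-04). Itga6 was also lower in shEya3_KD2 (-0.18 ± 0.06, adjusted p = 0.0188), a call lost without shEya3_KD1 replicate 1 or 2 or shEya3_KD2 replicate 3 (adjusted p = 0.0515 to 0.0696), or without the filter on low counts (0.0926). Itgb5 was not called (-0.37 ± 0.15, adjusted p = 0.0593), but it was called with RLE size factors, DESeq2, limma-voom, no filter, a stricter filter and only the groups compared (adjusted p = 1.12e-04 to 0.0482). DESeq2 also called Lama5 (adjusted p = 0.037).

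The 10 genes under the filter were near the detection limit. Itga2, a collagen receptor chain of epithelia and platelets, had 2 counts in shEya3_KD1 and 0 in shEya3_KD2, against 20 in SCR. It was lower in shEya3_KD1 by a ratio of 8.22 (95% counting interval 2.00 to 72.5), and at least 5.63-fold lower in shEya3_KD2, where 3 counts summed over the libraries were taken as the limit. Lama2, the muscle laminin chain, had 8 counts in shEya3_KD1 and 32 in shEya3_KD2, against 29 in SCR. The other 8, Itga9, Itga11, Itgad, Itgam, Itgax, Itgb3, Itgb6 and Lama4, had at most 15 counts in any group. Intervals and the floor cover counting error only.

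Start-site sequence is shown for 3 genes that carry the contrasts above: Itgb7, which moved opposite ways with the hairpins, Lamb3, which fell with both, and Itga3, which rose with shEya3_KD1. Each is the 250 bases before a RefSeq start site (GRCm38.p6), 5′ to 3′ on the gene's strand, in lower case. Capitals mark a match to GGGNNNNTCC, a loose form of the NF-kB site, of which the Itgb7 window has none. The windows are chr15:102231936-102232185 on the minus strand for Itgb7, chr1:193301993-193302242 on the plus strand for Lamb3 and chr11:95076715-95076964 on the minus strand for Itga3. A second Lamb3 window, chr1:193301744-193301993, has no match and is not printed. The second Itga3 window, chr11:95069199-95069448, has a match and is not printed either.
Itgb7: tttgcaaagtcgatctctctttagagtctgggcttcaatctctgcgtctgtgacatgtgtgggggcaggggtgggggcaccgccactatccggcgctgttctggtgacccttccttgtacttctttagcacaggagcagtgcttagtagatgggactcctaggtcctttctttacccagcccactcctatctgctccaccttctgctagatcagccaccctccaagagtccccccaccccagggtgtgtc
Lamb3: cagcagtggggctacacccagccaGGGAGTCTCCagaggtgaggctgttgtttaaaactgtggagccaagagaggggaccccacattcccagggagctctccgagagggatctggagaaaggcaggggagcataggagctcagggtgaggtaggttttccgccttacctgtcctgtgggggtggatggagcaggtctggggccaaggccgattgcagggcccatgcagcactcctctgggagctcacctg
Itga3: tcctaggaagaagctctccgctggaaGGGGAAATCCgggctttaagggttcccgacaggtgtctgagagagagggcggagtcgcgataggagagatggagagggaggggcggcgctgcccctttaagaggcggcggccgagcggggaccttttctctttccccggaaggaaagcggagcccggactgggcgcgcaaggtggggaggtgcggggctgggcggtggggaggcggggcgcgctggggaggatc
RefSeq windows were at hand for 21 of the 35 genes, 24 windows in all. On either strand, GGGNNNNTCC was found in 5 of them (Itga2, Itga3 with 2 windows, Lamb2 and Lamb3), where 16.5% of 32851 mouse windows of this length hold it. TGANTCA, the AP-1 site, was found in 1 (Itgax), where 6.75% of all windows hold it. TCAGGTT, the core of the MEF3 site bound by the homeodomain proteins that Eya proteins partner, was found in 0, where 3.49% of all windows hold it. A match describes these letters and does not show binding.

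Genes that work with integrins and laminins were counted from 4 lists. The shares to read their counts against are those of all genes tested, 24.1% higher and 26.2% lower with shEya3_KD1 and 23.0% higher and 22.3% lower with shEya3_KD2. The adhesion adaptor list had 34 tested genes, among them kinases such as Src, Ptk2 and Ptk2b, so not all link integrins to actin. Of the 34, 5 were higher and 15 lower in shEya3_KD1 (14.7% and 44.1%, median log2 fold change -0.15). In shEya3_KD2 9 were higher and 11 lower (26.5% and 32.4%, median -0.05). Lims2, a scaffold protein of the Ilk complex, had 1 count in shEya3_KD1 and 178 in shEya3_KD2, against 396 in SCR. It was lower in shEya3_KD1 than in SCR by a ratio of 325 (counting interval at 95% from 58.1 to 12880). With shEya3_KD2 it fell by 0.90 ± 0.18. Tns4, a tensin, fell by 1.89 ± 0.14 with shEya3_KD1 and 0.69 ± 0.14 with shEya3_KD2. Parvg, a parvin of blood cells, rose by 2.31 ± 0.28 with shEya3_KD1 and fell by 1.29 ± 0.44 with shEya3_KD2 (adjusted p = 5.20e-06 and 0.0255). It had 219 counts in shEya3_KD1 and 18 in shEya3_KD2, against 53 in SCR. Lpxn, a paxillin relative, fell by 2.03 ± 0.30 with shEya3_KD1 and 1.76 ± 0.29 with shEya3_KD2, and the adhesion kinase Ptk2b and the docking protein Nedd9 fell by 1.42 ± 0.24 and 0.99 ± 0.09 with shEya3_KD2.

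Of 14 tested basement membrane partners, 3 were higher and 5 lower in shEya3_KD1 (21.4% and 35.7%, median 0.08), and 6 were higher and 3 lower in shEya3_KD2 (42.9% and 21.4%, median 0.19). Col4a5, a collagen chain of basement membranes, averaged 142 ± 7.36 CPM in shEya3_KD1 and 59.2 ± 3.99 CPM in shEya3_KD2, against 24.3 ± 1.35 CPM in SCR, and Col4a6 stood at 2.79, 0.950 and 0.254 CPM in the same order. Ntn1, a laminin-related guidance protein, averaged 2.61 ± 0.897 CPM in shEya3_KD1 and 14.01 ± 2.25 CPM in shEya3_KD2, against 27.1 ± 2.82 CPM in SCR. Tinagl1, a matrix protein that binds integrins, rose by 1.24 ± 0.09 with shEya3_KD1 and 0.58 ± 0.09 with shEya3_KD2. Agrn, which ties laminin to dystroglycan, fell by 0.61 ± 0.14 with shEya3_KD1 (adjusted p = 0.00319) and rose by 0.75 ± 0.14 with shEya3_KD2 (adjusted p = 0.00105). Changes were also seen in 2 genes under 1 CPM in every group. Col4a4, another basement membrane collagen chain, had 3 counts in shEya3_KD1 and 9 in shEya3_KD2, against 83 in SCR (log2 fold changes -4.35 and -2.91). Frem1, an extracellular matrix protein, had 7 and 6 counts, against 45 in SCR (-2.34 and -2.59). Both fell with both hairpins (adjusted p = 3.30e-05 to 5.79e-04). The nidogens Nid1 and Nid2, which link laminin to collagen, had at most 23 counts in any group and were not tested.

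Of 10 tested hemidesmosome genes and other laminin receptors, shEya3_KD1 had 2 higher and 3 lower (20% and 30%, median 0.05), and shEya3_KD2 had 2 higher and 4 lower (20% and 40%, median -0.16). Dag1, which encodes the laminin receptor dystroglycan, averaged 240.2 ± 30.9 CPM in shEya3_KD1 and 233 ± 23.9 CPM in shEya3_KD2, against 148 ± 8.62 CPM in SCR (adjusted p = 2.39e-05 and 7.14e-05). The heparan sulphate carrier Sdc4 fell by 0.39 ± 0.06 with shEya3_KD1 and 0.60 ± 0.06 with shEya3_KD2, and its relative Sdc2 fell by 0.51 ± 0.07 with shEya3_KD2. Dst, a plakin of hemidesmosomes and other cytoskeletal links, fell by 0.79 ± 0.28 with shEya3_KD1 (adjusted p = 0.0489), and Sgcb, a sarcoglycan, rose by 0.33 ± 0.06 with shEya3_KD1 and fell by 0.29 ± 0.07 with shEya3_KD2 (adjusted p = 0.00232). Utrn, the utrophin that binds dystroglycan inside the cell, rose by 0.80 ± 0.16 with shEya3_KD2. The hemidesmosome gene Col17a1, at 0.286, 0.484 and 0.649 CPM in shEya3_KD1, shEya3_KD2 and SCR, fell with shEya3_KD1 (log2 fold change -1.16 ± 0.28, adjusted p = 0.00255), while Plec and Cd151 passed no test against SCR.

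Of 9 tested ligands outside the laminins, shEya3_KD1 had 4 higher and 2 lower (44.4% and 22.2%, median -0.05), and so did shEya3_KD2 (median -0.12). Ltbp1, which stores latent TGF-beta in the matrix, averaged 159 ± 13.6 CPM in shEya3_KD1 and 127 ± 11.3 CPM in shEya3_KD2, against 64.9 ± 3.11 CPM in SCR. Thbs1 and Spp1, both ligands of Itgav integrins, had log2 fold changes of 4.32 ± 0.19 and 2.68 ± 0.07 with shEya3_KD1 and 2.80 ± 0.18 and 0.56 ± 0.06 with shEya3_KD2. Tgfb3, a growth factor of the TGF-beta family, fell by 1.14 ± 0.10 with shEya3_KD1 and 0.63 ± 0.10 with shEya3_KD2. Emilin1, an elastic fibre protein, rose by 0.90 ± 0.19 with shEya3_KD1 and 0.64 ± 0.19 with shEya3_KD2. The fibronectin gene Fn1 was at 489 ± 86.4 CPM in shEya3_KD1 and 422 ± 92.5 CPM in shEya3_KD2, against 511 ± 73.5 CPM in SCR, and passed no test. Cdh1 and Madcam1, which encode ligands of the Itgb7 receptors but not all of them, had at most 22 counts and 1 count in any group. Vcam1, of the same ligand list, averaged 2.98 CPM in shEya3_KD1 and 2.92 CPM in shEya3_KD2, against 3.53 CPM in SCR. It passed no test against SCR.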

How the data were processed

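RNA of 66cl4 cultures was made into NuGEN Universal Plus libraries, per the labels' protocols. The submitters' processing notes name STAR, FastQC and MultiQC and the build mm10. The sources used here do not say how reads were counted, or with which annotation and strand setting. The authors deposited one table of raw counts with a row per gene symbol, and it was used unchanged. All 55418 symbols matched GENCODE M21, which gave coordinates and exon lengths.

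Groups came from sample titles. Genes passing filterByExpr (15914) were scaled with TMM factors and fitted with group as the sole term over all 9 libraries in edgeR 4.0.16 (R 4.3.3, glmQLFit and glmQLFTest, robust), with Benjamini-Hochberg adjustment at 0.05. CPM use TMM-scaled totals; standard errors come from the F statistic. TPM rest on all annotated exons of a gene, so long minor transcripts lower a gene's TPM. The fit was tested on simulated data. No replicates were merged, since the chi-square statistic of each pair over genes was 9.24 to 45.2 times its degrees of freedom.

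Values per library were given for genes of at least 1 CPM in a group with a called log2 change of at least 1, and for each class's leading gene; Itga8, just under that level, was added after its values were seen. From each accompanying list up to 4 called genes per hairpin were named by size of change, among those of at least 1 CPM in a group, with a few added by role after their values were seen. One of the genes counted is not reported here. The members and lists were chosen with earlier results of these data known. Other settings tried were DESeq2 1.42.0, limma-voom (limma 3.58.1), RLE size factors in edgeR, 2 other filters, only the groups compared, a replicate block, a minimum fold and each library left out. Of the ligand list, 22 of 25 symbols were in the table.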

Additional observations from a re-analysis of the deposited data

Results flagged for a closer look

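Itgb7 and Lamb2 were called in opposite directions with the 2 hairpins and differed between them. The log2 difference of Itgb7 between shEya3_KD2 and shEya3_KD1 was 2.25, with 60.6 ± 3.11 CPM in shEya3_KD2 and 12.8 ± 0.647 CPM in shEya3_KD1 (SD, n = 3 each). That of Lamb2 was 1.30, with 29.8 ± 4.13 CPM in shEya3_KD2 and 12.1 ± 1.03 CPM in shEya3_KD1. Both differences passed edgeR's test between the hairpins and kept their direction and call under every alternative run, while the Lamb2 call of shEya3_KD2 against SCR was lost under a minimum fold of 1.5.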

How the results depend on the processing

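Each tested gene was recomputed in each comparison under the alternatives, 1251 values in all. Of these 1190 kept their side of the threshold, 41 lost a call, 20 gained one and 0 called values changed sign. A minimum fold of 1.5 (glmTreat) accounted for 20 of the lost calls: it left 10 of the 25 genes called with shEya3_KD1 against 16, 5 with shEya3_KD2 against 14, and 9 between the hairpins against 14. Over all genes it left 2591, 1456 and 2087 calls against 8011, 7210 and 7889. With each library left out in turn, 15 to 17, 11 to 15 and 14 to 17 of the genes were called. No other alternative moved these counts by more than 1.5 times. The replicate numbers did not pair the libraries: 3 of 9 same-numbered pairs had correlated deviations above 0.1 (range -0.209 to 0.357), and the best match had the same number in 5 of 18 cases. With the replicate block 15 genes were called with shEya3_KD1, 14 with shEya3_KD2 and 15 between the hairpins; Lama5 with shEya3_KD1 had an adjusted p = 0.0537, and Itgb5 between the hairpins one of 0.0204. Genes under about 1 CPM (Itga8, Itgal, Lama1, Lama3) are limited by depth.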
